A study of Homo sapiens with 11 samples.

Results

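The comparison described here is between a pair of engineered lines made from ARPE-19. That established human cell line comes from retinal pigment epithelium (RPE), the pigmented cell layer that nourishes the photoreceptors and recycles their visual pigment. One stable line carried an open reading frame (ORF) for Oct4 and the other an ORF for Sox2, and polyadenylated RNA was sequenced after 4 days of ORF expression. Each line gave 2 libraries, 4 of the 11 libraries of the series; the others came from lines with a GFP control ORF (3 libraries), Klf4 (2 libraries) or all 3 factors together (OSK, 2 libraries). Genes entered the comparison when their normalised count (the authors' reads per gene divided by a factor per library) was at least 10 in at least 2 of the 11 libraries, which left 18828 of 60605 listed features. The library names of the Oct4, Sox2, Klf4 and OSK lines carry the element mC, which those of the GFP line lack. The labels do not explain it. They name no further allele or agent, and they do not say which species the ORFs came from, what promoter drove them, or whether a line was 1 clone. They also do not say that replicates came from separate cultures, so the p-values below measure only the spread between these libraries.

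Oct4 (gene POU5F1) is a POU-domain transcription factor that binds the octamer sequence, and Sox2 is an HMG-box factor that bends DNA at short AACAAT-like sites. In pluripotent stem cells they bind side by side at composite sites and act on many of the same enhancers, and together with Klf4 they form the set used for reprogramming. Outside the stem cell, Sox2 is known for neural progenitors and the developing eye, whereas Oct4 is normally silent in somatic tissue. Setting the Oct4 line against the Sox2 line asks what differs between cells given only one partner of that pair, and the difference itself uses neither the GFP libraries nor a shared control.

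The 4 libraries held 15053300 to 19791775 reads and detected 25864 to 26971 features. GFP replicate 1 and OSK replicate 1 stood apart, with 42956 and 32493 features detected. They enter the comparison through the shared estimate of spread and through the filter over all libraries, which sets the genes tested. The labelled cell type was checked against its markers. Of 13 RPE markers 10 were tested, of which 5 were higher in Oct4 and 3 in Sox2 (median log2 difference, Oct4 minus Sox2, 0.28), where 33.4% of all genes tested were called in either direction. The summed level of the markers ran the other way, 18347 and 18800 in the Oct4 libraries and 21430 and 22106 in the Sox2 libraries. That sum includes the simple epithelial keratins KRT8 and KRT18, which, like BEST1, were higher in Sox2. PMEL (mean 612 in Oct4 and 140 in Sox2), MITF (1893 and 769) and TYRP1 (274 and 134) were higher in Oct4. The defining visual cycle enzyme RPE65 was at 0 in all 4 libraries. TTR, transthyretin, and RGR, an opsin of the RPE, reached at most 0.86 and 4.58. Summed markers of blood (6.85 to 18.57), endothelium (23.21 to 62.5) and photoreceptors (21.31 to 67.52) were low in the 4 libraries. Of 8 markers each, 0, 4 and 2 of them were tested; ESAM, of endothelium, was called higher in Sox2 and NRL, of photoreceptors, in Oct4, and both calls were lost in DESeq2. Of 8 fibroblast markers 5 were tested, of which 2 were higher in Oct4 and 1 in Sox2 (median 0.56), and the markers' summed level was 10986 to 14114 in Oct4 and 13266 to 16169 in Sox2.

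The delivered factors followed the labels. POU5F1 read 67326 and 66823 in the Oct4 libraries and 282 and 174 in the Sox2 libraries, a log2 difference (Oct4 minus Sox2, on log2 of the value plus 1) of 8.24 (SE 0.18). SOX2 read 197 and 179 in the Oct4 libraries and 29106 and 29140.5 in the Sox2 libraries, a difference of -7.27 (SE 0.20). Reads from an ORF and from the cell's own gene cannot be told apart here. KLF4, delivered to neither line, read 248 and 242 in the Oct4 libraries and 101 and 78.8 in the Sox2 libraries, a difference of 1.45 (SE 0.31) with an adjusted p of 0.00182 in limma.

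Across all genes, 6283 differed between the lines at an adjusted p under 0.05 in limma, 33.4% of those tested. Of them 3380 (18.0% of the genes tested) were higher in Oct4 and 2903 (15.4%) were higher in Sox2. These shares are a rough reference for the list counts below, because they include noncoding and low genes. Of 13933 protein-coding genes 39.4% were called, against 20.78% of long noncoding RNAs and 16.52% of pseudogenes. With the filter raised to a normalised count of 50, 6129 of 13412 genes were called. Whether a list exceeds genes of its own class and level was not tested. A log2 difference of at least 1 on top of the test was met by 1439 genes (7.64%) higher in Oct4 and 744 (3.95%) higher in Sox2. When the test itself asked for a difference greater than 1 on the log2 scale, 536 genes were higher in Oct4 and 207 in Sox2, so that 72.14% of the calls were higher in Oct4 against 53.8% in the test of any difference. The median log2 difference over all genes tested was 0.02. Unless stated otherwise, the 2 Oct4 values lay wholly above or wholly below the 2 Sox2 values for each gene whose 4 values are given below.

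**Figure D1:**
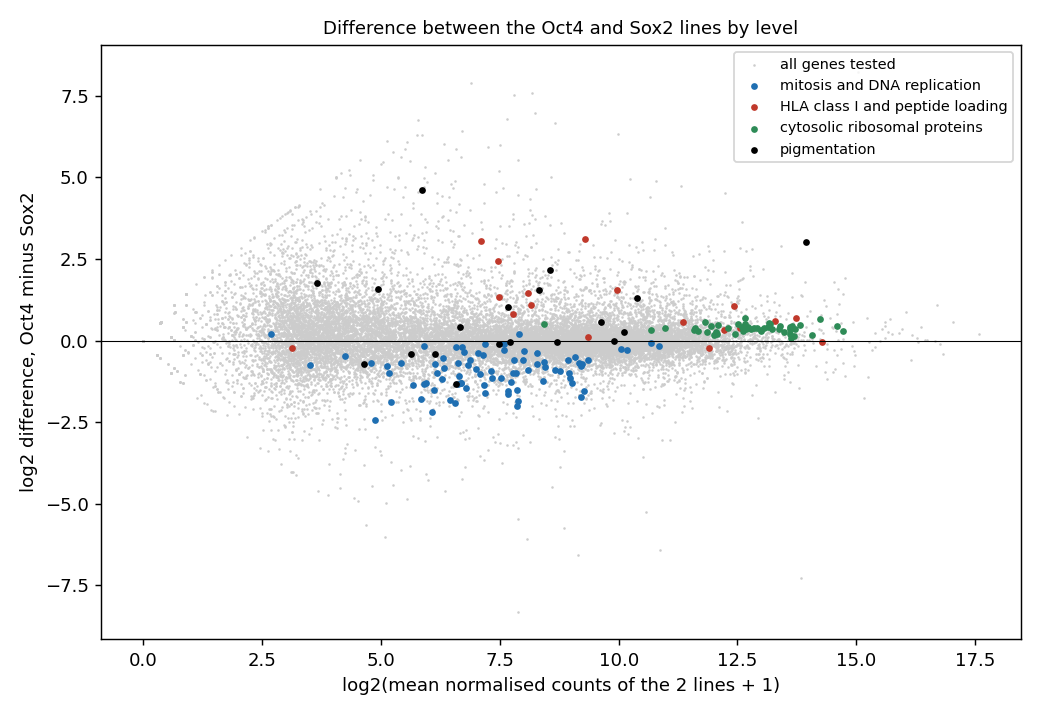
Each point is 1 of the 18828 genes tested, with the log2 of its mean normalised count over both lines plus 1 on the x axis and its log2 difference (Oct4 minus Sox2) on the y axis. Genes of mitosis and DNA replication lie almost wholly below 0 (medians -1.0 and -0.74), genes of class I antigen presentation mostly above it (median 0.76), and cytosolic ribosomal protein genes in a narrow band above it (median 0.38).

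Sequences just upstream of some leading genes are shown because Oct4 and Sox2 are known to bind short DNA motifs. Of the 24 leading genes (the 12 with the largest difference in each direction under the naming rule) 17 had a promoter in the RefSeq table of build GRCh38.p14, taken as 250 bases before to 50 bases after a listed start. For ACE this window (chr17:63484596-63484895) lies inside the gene, which starts at 63477061, so the bases before that start were not searched. Both strands were searched for the octamer ATGCAAAT, and for AACAAT and ACAAAG, which are SOX motifs, and matches of different motifs were allowed to overlap. Capitals mark the matches, and a lower-case run holds none. The promoter of SUCNR1 (chr3:151873393-151873692, plus strand) carries the octamer at 2 places a few bases apart, and that of LINC02535 (chr6:85404753-85405052, minus strand) carries it once in the reverse orientation. The promoters of CALHM4 (chr6:116528793-116529092) and CALHM5 (chr6:116511389-116511688), both on the plus strand, carry SOX motifs.
SUCNR1: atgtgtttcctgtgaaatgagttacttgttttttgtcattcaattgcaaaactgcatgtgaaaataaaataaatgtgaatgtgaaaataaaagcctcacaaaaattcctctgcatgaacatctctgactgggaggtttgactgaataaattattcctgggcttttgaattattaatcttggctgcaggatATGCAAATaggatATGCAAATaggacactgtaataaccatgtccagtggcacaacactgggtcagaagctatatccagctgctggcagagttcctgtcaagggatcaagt
LINC02535: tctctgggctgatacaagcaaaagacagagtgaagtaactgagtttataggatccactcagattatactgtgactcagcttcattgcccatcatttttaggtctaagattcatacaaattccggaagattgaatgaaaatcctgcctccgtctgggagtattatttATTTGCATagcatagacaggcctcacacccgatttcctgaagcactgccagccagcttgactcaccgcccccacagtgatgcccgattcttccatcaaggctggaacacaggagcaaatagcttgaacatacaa
CALHM4: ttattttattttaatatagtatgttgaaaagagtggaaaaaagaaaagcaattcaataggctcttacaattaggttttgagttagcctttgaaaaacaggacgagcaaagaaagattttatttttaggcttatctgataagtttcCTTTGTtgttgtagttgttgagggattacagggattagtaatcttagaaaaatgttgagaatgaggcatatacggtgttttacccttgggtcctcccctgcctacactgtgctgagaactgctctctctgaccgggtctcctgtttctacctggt
CALHM5: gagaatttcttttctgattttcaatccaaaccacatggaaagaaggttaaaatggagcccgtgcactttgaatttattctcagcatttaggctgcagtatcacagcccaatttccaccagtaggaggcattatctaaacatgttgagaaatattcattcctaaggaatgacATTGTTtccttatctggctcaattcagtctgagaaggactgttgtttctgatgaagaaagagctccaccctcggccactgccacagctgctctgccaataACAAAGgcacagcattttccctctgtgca

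The octamer was present in 2 of 8 promoters of genes leading in Oct4, in 0 of 9 of those leading in Sox2, and in 1.774% of all 35116 promoters of that length. AACAAT was present in 1 of 8, 2 of 9 and 10.12% of these sets. ACAAAG was present in 1 of 8, 4 of 9 and 16.07%. The promoter of SOX2, itself a delivered factor, was among the 9 and carried 1 of these 4 matches. Its rank cannot be assigned to its own promoter, because reads of the ORF cannot be told apart. A match describes letters in a short window and does not show that a factor binds there.

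The genes leading in Oct4 were low in the Sox2 line. SUCNR1, the receptor for extracellular succinate, whose octamer-bearing promoter is printed above, read 579 and 570.0 in the Oct4 libraries and 7.85 and 0 in the Sox2 libraries. Its log2 difference was 7.60 (SE 0.97), and it ranged from 6.02 without Sox2 replicate 2 to 9.17 without Sox2 replicate 1. In bulk RNA, fewer cells with a transcript and less transcript per cell cannot be told apart. LRRC31, a leucine-rich repeat protein, read 216 and 256 in the Oct4 libraries and 0 and 0 in the Sox2 libraries, and at the level that 3 reads over the Sox2 libraries would give it was at least 162-fold higher in Oct4. PRKAG3, a regulatory subunit of the energy sensor AMPK, read 117 and 97.3 in the Oct4 libraries and 0 and 0 in the Sox2 libraries and was at least 73.6-fold higher in Oct4 by the same floor. The naming rule required that the libraries of the lines not overlap for these 3 genes, a condition met by 66.8% of all genes tested.

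BCO1, the enzyme that cleaves beta-carotene into retinal, read 388 and 406 in the Oct4 libraries and 1.12 and 5.14 in the Sox2 libraries, a log2 difference of 6.79 (SE 0.81) that ranged from 6.02 without Sox2 replicate 1 to 7.55 without Sox2 replicate 2. PDE7B, a phosphodiesterase that degrades cyclic AMP, read 748 and 850.4 in the Oct4 libraries and 4.49 and 10.3 in the Sox2 libraries, a difference of 6.67 (SE 0.36). Both Oct4 libraries lay far above both Sox2 libraries for each of these genes. CPA4, a secreted carboxypeptidase, read 1713 and 2296 in the Oct4 libraries and 20.2 and 28.3 in the Sox2 libraries (log2 difference 6.32, SE 0.19). PLAAT4, a phospholipase induced by retinoids, read 339 and 375 in the Oct4 libraries and 7.85 and 2.57 in the Sox2 libraries, a log2 difference of 5.99 (SE 0.53) that ranged from 5.34 without Sox2 replicate 2 to 6.65 without Sox2 replicate 1. CPA4 was also high with OSK (1787 to 2609), whereas SUCNR1 read 6.50 to 7.70 there. The largest adjusted p among these 7 protein-coding genes was 0.000656 (PRKAG3).

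A pair of long noncoding RNAs led in the same direction. LINC02535 read 172 and 242 in the Oct4 libraries and 1.12 and 1.71 in the Sox2 libraries, a ratio of means of 142 with a 95% counting interval of 48.2 to 692. LINC02700 read 157 and 156 in the Oct4 libraries and 1.12 and 1.71 in the Sox2 libraries, a ratio of 107 (36.3 to 523). These intervals are exact and cover counting error only. The pseudogenes POU5F1P3 (613 and 584 in Oct4, 3.37 and 4.28 in Sox2) and POU5F1P4 (329 and 274 in Oct4, 4.49 and 3.42 in Sox2) are near copies of POU5F1. They may share reads with it, so their differences of 6.96 and 5.93 are uncertain as statements about the pseudogenes.

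In the opposite direction, the largest difference was that of CALHM4, a member of the calcium homeostasis modulator family of large-pore channels. It read 1.16 and 0 in the Oct4 libraries and 435 and 506 in the Sox2 libraries, a ratio of 825 in favour of Sox2 with a 95% counting interval of 148 to 32612. Its neighbour CALHM5, of the same family, read 6.97 and 6.87 in the Oct4 libraries and 509 and 554 in the Sox2 libraries, a log2 difference of -6.07 (SE 0.59). In the OSK libraries, which read 17582 and 17764 for SOX2, CALHM4 read 1.08 to 1.10 and CALHM5 read 2.17 to 3.30. The contrast with OSK was not tested here.

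Receptors, enzymes and transporters made up most of the others. TLR4, the receptor for bacterial lipopolysaccharide, read 37.2 and 48.1 in the Oct4 libraries and 3967 and 3476 in the Sox2 libraries (log2 difference -6.42, SE 0.27). IL7R, the interleukin 7 receptor chain, read 79 and 75.5 in the Oct4 libraries and 3192 and 2754 in the Sox2 libraries (log2 difference -5.24, SE 0.84). ACE, the angiotensin-converting enzyme, read 8.13 and 12.6 in the Oct4 libraries and 729 and 1509.6 in the Sox2 libraries (log2 difference -6.56, SE 0.89). The Sox2 libraries exceeded the Oct4 libraries by more than 10 times for each of these 3 genes. SLC6A9, the glycine transporter GlyT1, read 15.1 and 17.2 in the Oct4 libraries and 937 and 878 in the Sox2 libraries (log2 difference -5.73, SE 0.63). AK5, an adenylate kinase, read 23.2 and 44.6 in the Oct4 libraries and 686 and 801 in the Sox2 libraries (log2 difference -4.48, SE 0.29). GRIK2, a kainate-type glutamate receptor subunit, read 12.8 and 6.87 in the Oct4 libraries and 214 and 177 in the Sox2 libraries (log2 difference -4.23, SE 0.60).

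MFAP5, a glycoprotein of elastic microfibrils, read 3.48 and 21.8 in the Oct4 libraries and 369 and 545 in the Sox2 libraries, a log2 difference of -5.48 (SE 0.59) that ranged from -6.65 without Oct4 replicate 2 to -4.30 without Oct4 replicate 1. LEFTY2, a secreted inhibitor of Nodal signalling, read 5.81 and 4.58 in the Oct4 libraries and 118 and 121 in the Sox2 libraries (log2 difference -4.29, SE 0.71). The noncoding RNA FAM182A, which has a close copy that may share its reads, read 8.13 and 3.43 in the Oct4 libraries and 171 and 141 in the Sox2 libraries (log2 difference -4.62, SE 0.88). The largest adjusted p among these 10 genes and CALHM4 was 0.000693 (FAM182A), and the naming rule required libraries that do not overlap for all of them.

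**Figure D2:**
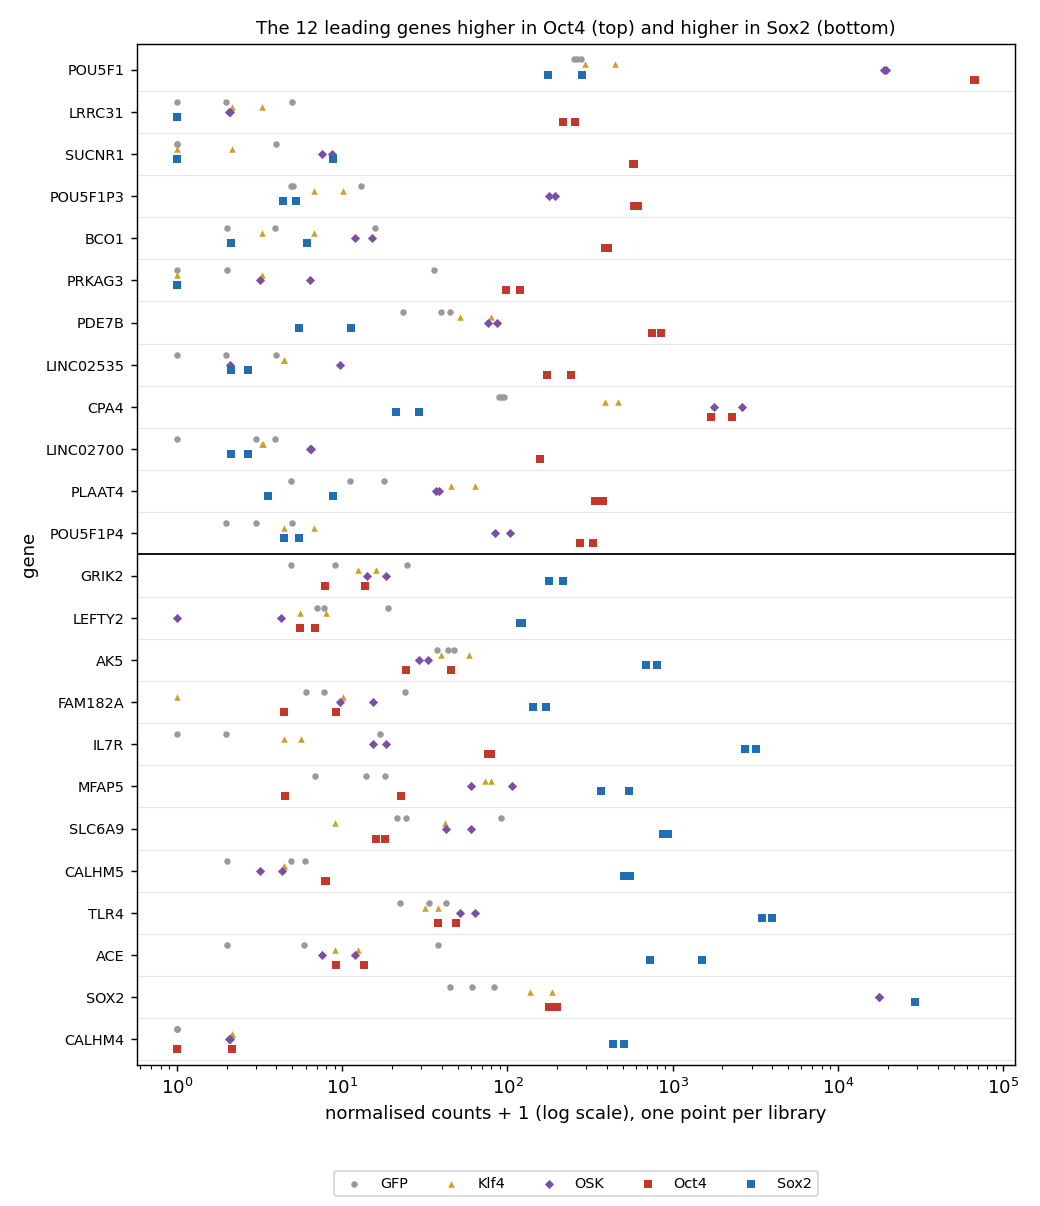
Normalised count plus 1 on a log axis for the 24 leading genes, 1 point per library, with squares for the Oct4 and Sox2 lines and smaller symbols for the GFP, Klf4 and OSK lines. In every row the Oct4 squares lie apart from the Sox2 squares, as the naming rule required. CPA4 in OSK lies with Oct4, whereas CALHM4, TLR4 and IL7R in OSK lie far below Sox2.

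Some leading genes had neighbours that differed in the same direction. Within 200000 bases of the leading genes lay 108 tested neighbours by RefSeq position, counted once for each leading gene. Of these, 34 were called in the direction of their leading gene and 12 in the opposite direction. POU5F1 supplied 3 of the 34 and 1 of the 12, POU5F1P3 supplied 1 and 0, and POU5F1P4 supplied 1 and 4. Reads of the ORF cannot be told apart from those of POU5F1 and may be shared with the pseudogenes. The ranks of these genes therefore cannot be assigned to their own loci. Over all genes tested, 18.0% were called higher in Oct4, 15.4% higher in Sox2 and 33.4% in either direction. CALHM4 and CALHM5 each supplied 5 of the 34. They were counted as neighbours of each other and shared their other called neighbours. CALHM5 and CALHM4 lie side by side at chr6:116511639-116524788 and chr6:116529043-116561127 on GRCh38.p14. Around CALHM4, 5 of 7 neighbours were higher in Sox2: CALHM5 itself, DSE (-0.66), KPNA5 (-0.69), ZUP1 (-0.51) and RWDD1 (-0.49). TRAPPC3L, in the same stretch, read 0 and 0 in the Oct4 libraries and 8.98 and 16.3 in the Sox2 libraries, too low to be tested.

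Beside PRKAG3, CYP27A1, the mitochondrial sterol 27-hydroxylase, read 3095 and 3119 in the Oct4 libraries and 146 and 146 in the Sox2 libraries (log2 difference 4.40, SE 0.13), and TTLL4, a tubulin glutamylase, read 1223 and 1164 in the Oct4 libraries and 294 and 295 in the Sox2 libraries (log2 difference 2.02, SE 0.10). IL7R had a neighbour that ran the other way: CAPSL read 58.1 and 64.1 in the Oct4 libraries and 1.12 and 0 in the Sox2 libraries, a ratio of 126 with a 95% counting interval of 22.1 to 5016 in favour of Oct4. These neighbours fall outside the naming rule and were picked after their values were seen.

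Genes of cell division were higher in the Sox2 line. Of 40 mitosis genes 29 were higher in Sox2 and 0 in Oct4, with a median log2 difference of -1.0. Of 41 DNA replication genes 30 were higher in Sox2 and 0 in Oct4 (median -0.74), and all 41 differences were negative. The test for a difference greater than 1 kept 4 and 3 of them. MKI67, the nuclear antigen used to mark cycling cells, read 258 and 291 in the Oct4 libraries and 878 and 945 in the Sox2 libraries (log2 difference -1.73, SE 0.13). KIF4A, a chromokinesin, read 34.8 and 42.4 in the Oct4 libraries and 154 and 141 in the Sox2 libraries (log2 difference -1.91, SE 0.24). NDC80 and SPC25, subunits of the kinetochore complex that holds microtubules, had a log2 difference of -1.83 (SE 0.26) and -1.87 (SE 0.33).

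Among the replication genes, CDC45, part of the replicative helicase, read 16.3 and 32 in the Oct4 libraries and 102 and 116 in the Sox2 libraries (log2 difference -2.20, SE 0.34). RRM2, the regulated subunit of ribonucleotide reductase, read 99.9 and 84.7 in the Oct4 libraries and 370.2 and 374 in the Sox2 libraries (log2 difference -2.01, SE 0.25). E2F1, the transcription factor that drives S-phase genes, read 116 and 87 in the Oct4 libraries and 388 and 342 in the Sox2 libraries (log2 difference -1.85, SE 0.16), and GINS2, another helicase subunit, had a log2 difference of -1.78 (SE 0.31). The largest adjusted p among these 4 was 0.000339, for GINS2. For E2F1, the GFP libraries read 64.2 to 76.9, the Klf4 libraries 783 to 1001 and the OSK libraries 801 to 822.

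Other regulators of the cycle and p53 targets were called in both directions. Of 30 cell cycle inhibitors, D cyclins and p53 targets, 7 were higher in Oct4 and 8 in Sox2 (median -0.07). The D cyclins, partners of CDK4 and CDK6, divided: CCND1 read 8154 and 7122 in the Oct4 libraries and 21192 and 20243 in the Sox2 libraries (log2 difference -1.44, SE 0.13) and CCND2 read 70.8 and 75.5 in the Oct4 libraries and 15.7 and 19.7 in the Sox2 libraries (log2 difference 2.00, SE 0.28). CCND3 went with CCND1 (log2 difference -0.77, SE 0.11). GADD45A, a stress-induced growth arrest gene, read 4798 and 4669 in the Oct4 libraries and 2143 and 2302 in the Sox2 libraries (log2 difference 1.09, SE 0.09). CDKN2C, an inhibitor of CDK4 and CDK6, was higher in Sox2 (log2 difference -0.98, SE 0.16). CDKN1A, the p53 target p21, read 4879 and 5055 in the Oct4 libraries and 5003 and 5353 in the Sox2 libraries and did not pass the test (adjusted p = 0.785), its libraries overlapping.

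Genes of class I antigen presentation were higher in the Oct4 line. Class I molecules carry peptides from the cell's own proteins to its surface, after cutting by the immunoproteasome, transport by TAP and trimming by ERAP enzymes. Of 18 genes 14 were higher in Oct4 and 0 in Sox2, with a median of 0.76. The trimming peptidases ERAP2 (1173 and 1079 in the Oct4 libraries and 126 and 135 in the Sox2 libraries, log2 difference 3.10, SE 0.13) and ERAP1 (1513 and 1446 in the Oct4 libraries and 532 and 479.5 in the Sox2 libraries, log2 difference 1.55, SE 0.10) were among them. So were the immunoproteasome subunits PSMB9 (219 and 274 in Oct4, 33.7 and 24 in Sox2, log2 difference 3.06, SE 0.36) and PSMB10 (341 and 256 in Oct4, 51.6 and 55.7 in Sox2, log2 difference 2.44, SE 0.20). Under the 4 alternatives without GFP replicate 1, 1 of the 18, PDIA3, was called higher in Sox2.

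The class I heavy chains had smaller fitted differences than these enzymes. HLA-B read 7593 and 7198 in the Oct4 libraries and 3669.9 and 3442 in the Sox2 libraries (log2 difference 1.06, SE 0.12), and HLA-C had a log2 difference of 0.59 (SE 0.10). The light chain B2M read 5175 and 5439 in the Oct4 libraries and 4064 and 4417 in the Sox2 libraries (log2 difference 0.32, SE 0.10). The heavy chain genes are close in sequence and may share reads, so the split between them is uncertain. TAP1, one chain of the peptide transporter, did not pass the test (670.0 and 671 in the Oct4 libraries and 594 and 664 in the Sox2 libraries, adjusted p = 0.626), and neither did HLA-G, CALR and PDIA3.

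Interferon-stimulated genes divided into members higher on either side. Of 39, 13 were higher in Oct4 and 6 in Sox2 (median 0.16), and without Sox2 replicate 2 the latter count was 3. IRF1, a transcription factor induced by interferon gamma that acts on class I genes, read 1719 and 1648 in the Oct4 libraries and 138 and 126 in the Sox2 libraries (log2 difference 3.66, SE 0.12). GBP1, a guanylate-binding protein that attacks intracellular microbes, read 819.8 and 806 in the Oct4 libraries and 66.2 and 65.1 in the Sox2 libraries (log2 difference 3.61, SE 0.29), and its relative GBP3 read 1591 and 1391 in the Oct4 libraries and 125 and 108 in the Sox2 libraries (log2 difference 3.67, SE 0.21). STAT2, which carries the type I interferon signal, had a log2 difference of 1.06 (SE 0.08).

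IFI6, an interferon-induced mitochondrial protein, was the member with the largest difference in the other direction (239 and 229 in the Oct4 libraries and 1177 and 1524 in the Sox2 libraries, log2 difference -2.51, SE 0.21). Also higher in Sox2 were ISG15 (-1.35), IFIT1 (-1.24), OAS3 (-0.93) and PARP9 (-0.30), whereas the related IFIT2 (1.37) and IFIT3 (1.26) were higher in Oct4. ISG15, a ubiquitin-like protein attached to others during the interferon response, read 94.1 and 90.4 in the Oct4 libraries and 166 and 335 in the Sox2 libraries. Its Sox2 libraries lay apart from each other but both above the Oct4 libraries.

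**Figure D3:**
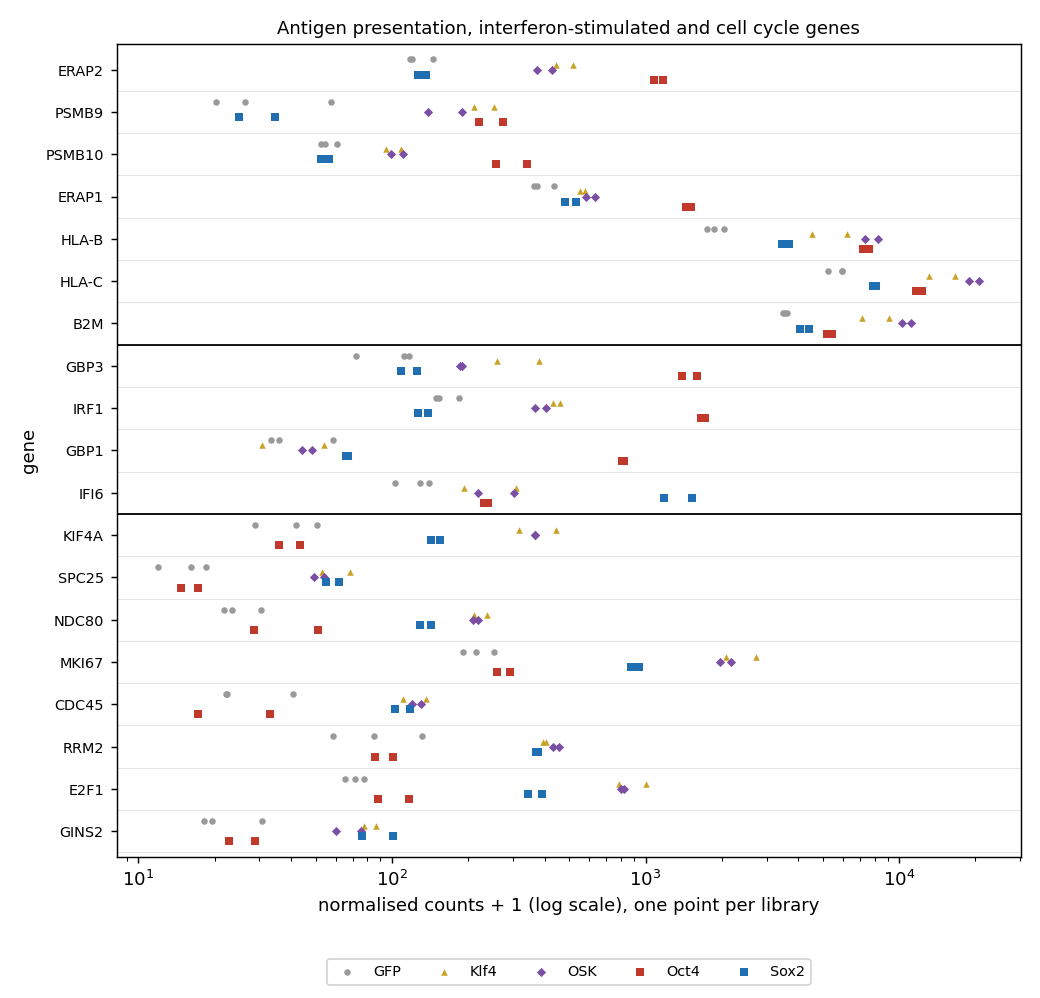
Normalised count plus 1 on a log axis, 1 point per library, for class I antigen presentation genes (top), interferon-stimulated genes (middle) and cell cycle genes (bottom). The Oct4 squares lie to the right of the Sox2 squares in the top block and for GBP3, IRF1 and GBP1, and to the left for IFI6 and all 8 cell cycle genes.

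Complement and cytokine genes were described by the same rule. Of 18 complement genes 8 were higher in Oct4 and 1, CD46, in Sox2 (median 0.54), with 2 to 4 higher in Sox2 under 4 alternatives. CLU, clusterin, a chaperone and complement inhibitor found in RPE deposits, read 20356 and 17945 in the Oct4 libraries and 2362 and 2742 in the Sox2 libraries (log2 difference 2.91, SE 0.09). C1S, a protease of the classical pathway, read 819.8 and 1099.9 in the Oct4 libraries and 238 and 390.4 in the Sox2 libraries (log2 difference 1.64, SE 0.20). VTN, vitronectin, read 94.1 and 143 in the Oct4 libraries and 19.1 and 48.8 in the Sox2 libraries, a difference of 1.89 (SE 0.30) that ranged from 1.23 without Sox2 replicate 1 to 2.54 without Sox2 replicate 2.

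Of 28 cytokine and chemokine genes 9 were higher in Oct4 and 8 in Sox2 (median 0.23); without Oct4 replicate 2 the latter count was 5. IL6R, the interleukin 6 receptor, read 83.6 and 88.1 in the Oct4 libraries and 1.12 and 4.28 in the Sox2 libraries, a log2 difference of 4.70 (SE 0.38) that ranged from 4.04 without Sox2 replicate 1 to 5.36 without Sox2 replicate 2. IL12A, a subunit of interleukin 12, read 77.8 and 58.4 in the Oct4 libraries and 7.85 and 10.3 in the Sox2 libraries (log2 difference 2.78, SE 0.29). IL18, an inflammasome cytokine, had a log2 difference of 1.77 (SE 0.15). TNFSF10, the death ligand TRAIL, read 0 and 0 in the Oct4 libraries and 47.1 and 51.4 in the Sox2 libraries, at least 28.6-fold higher in Sox2 at a floor of 3 reads over the Oct4 libraries.

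Pigment and RPE genes were called in both directions. Of 19 pigmentation genes 9 were higher in Oct4 and 1, RAB38, in Sox2 (median 0.41). PMEL, which forms the fibrils on which melanin is laid down, read 524 and 700.5 in the Oct4 libraries and 101 and 179.8 in the Sox2 libraries (log2 difference 2.16, SE 0.22), beside 4094 to 6067 with GFP. TRPM1, a cation channel first found in melanocytes, read 53.4 and 171 in the Oct4 libraries and 3.37 and 2.57 in the Sox2 libraries, a log2 difference of 4.61 (SE 0.50) that ranged from 3.78 without Oct4 replicate 2 to 5.44 without Oct4 replicate 1. Its Oct4 libraries lay apart from each other, both above the Sox2 libraries. GPNMB, a melanosome glycoprotein, read 28423 and 27926 in the Oct4 libraries and 3437 and 3487 in the Sox2 libraries (log2 difference 3.02, SE 0.10). MITF, the transcription factor that drives this programme, read 1786 and 1999.5 in the Oct4 libraries and 789.9 and 748 in the Sox2 libraries (log2 difference 1.30, SE 0.08). Without Sox2 replicate 1, 2 pigmentation genes were called higher in Sox2. Of 8 melanocyte and neural crest markers 5 were tested and 1 was higher in Oct4, and their summed level was 65.07 to 90.57 in the 4 libraries.

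Of 29 genes of the retinoid cycle and RPE function, 14 were higher in Oct4 and 5 in Sox2 (median 0.44), the latter 3 without Sox2 replicate 2. RDH10, which makes retinal from retinol, read 1732 and 2289 in the Oct4 libraries and 580.1 and 696 in the Sox2 libraries (log2 difference 1.65, SE 0.16). SLC6A20, a proline transporter, read 55.7 and 101 in the Oct4 libraries and 1.12 and 1.71 in the Sox2 libraries, a ratio of 53.8 with a 95% counting interval of 18 to 264. BEST1, the RPE chloride channel, ran the other way and read 46.5 and 43.5 in the Oct4 libraries and 78.5 and 104 in the Sox2 libraries (log2 difference -0.99, SE 0.24, adjusted p = 0.00489), and its call was lost without Sox2 replicate 2 (-0.79, adjusted p = 0.0684).

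Of 22 tested genes of the pluripotency network, 9 were higher in Oct4 and 1, LEFTY2, in Sox2 (median 0.62), but without Sox2 replicate 2 the first count was 4. DNMT3B, a DNA methyltransferase of early embryos, read 318 and 275 in the Oct4 libraries and 184 and 176 in the Sox2 libraries (log2 difference 0.71, SE 0.16). NANOG, a core factor of the network, read 5.81 and 8.01 in the Oct4 libraries and 5.61 and 0.860 in the Sox2 libraries and did not pass the test (adjusted p = 0.206). Of 17 neural progenitor and neuron genes 2 were higher in Sox2, MAP2 (log2 difference -1.23, SE 0.10) and HES6 (log2 difference -0.70, SE 0.14), and 0 in Oct4 (median 0.10). These calls were 11.76% of the list, below the 33.4% called over all genes tested, and 11 of the 17 differences were positive. MAP2, a microtubule protein of dendrites, read 2012 and 2258 in the Oct4 libraries and 5049 and 4964 in the Sox2 libraries.

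Among 17 eye field and RPE transcription factors 5 were higher in Oct4 and 2 in Sox2 (median 0.10), the latter 1 under 7 alternatives. SIX3, an early eye field factor, read 1031 and 983 in the Oct4 libraries and 1582 and 1547 in the Sox2 libraries (log2 difference -0.64, SE 0.07). In the SOX family 4 of 10 tested members were higher in Oct4 and 1, SOX6 (-1.82), in Sox2, with 2 in Sox2 under 4 alternatives. SOX8 read 866 and 972 in the Oct4 libraries and 199 and 307 in the Sox2 libraries (log2 difference 1.89, SE 0.20). In the POU family 1 of 6 tested members differed: POU6F1 read 521 and 456 in the Oct4 libraries and 145 and 139 in the Sox2 libraries (log2 difference 1.78, SE 0.15). These lists left out the delivered factors.

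The series asked about effectors of oxidative defence, and the lists of that kind held calls in both directions. GSTA4, the glutathione transferase named in the series title, which detoxifies lipid peroxidation products, read 183 and 192 in the Oct4 libraries and 169 and 194 in the Sox2 libraries. Its log2 difference was 0.05 (SE 0.19), with a 95% interval of -0.35 to 0.45 and an adjusted p of 0.873, and the libraries overlapped. In the OSK line it read 464 to 515.

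Of 28 glutathione genes 7 were higher in Oct4 and 7 in Sox2 (median -0.08), the latter 4 under 5 alternatives, among them leaving out Oct4 replicate 1, Oct4 replicate 2 or Sox2 replicate 2. GSR, which regenerates reduced glutathione, read 2854 and 2769 in the Oct4 libraries and 1082 and 1163 in the Sox2 libraries (log2 difference 1.32, SE 0.08). GCLM, the modifier subunit of the rate-limiting enzyme of glutathione synthesis, read 771 and 797 in the Oct4 libraries and 339.9 and 381 in the Sox2 libraries (log2 difference 1.12, SE 0.10), while its catalytic partner GCLC did not pass the test (-0.07, adjusted p = 0.632). GSTM3, a glutathione transferase, read 2356 and 2207 in the Oct4 libraries and 889.7 and 958 in the Sox2 libraries (log2 difference 1.30, SE 0.11). MGST1, a membrane-bound transferase, was higher in Sox2 (446 and 564 in the Oct4 libraries and 1080.5 and 1401 in the Sox2 libraries, log2 difference -1.29, SE 0.12).

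Of 25 peroxide and thioredoxin enzymes 6 were higher in Oct4 and 7 in Sox2 (median -0.05). The latter count was 3 in a fit of only the 4 libraries, 2 without Sox2 replicate 2, and 4 without Oct4 replicate 1, without Oct4 replicate 2 or without OSK replicate 1. TXNRD1, the cytosolic thioredoxin reductase, read 11023 and 11293 in the Oct4 libraries and 5025 and 5514 in the Sox2 libraries (log2 difference 1.08, SE 0.08). PRDX4, the peroxiredoxin of the secretory pathway, read 1186 and 1241 in the Oct4 libraries and 665 and 700.4 in the Sox2 libraries (log2 difference 0.83, SE 0.12). SOD3, the extracellular superoxide dismutase, read 201 and 203 in the Oct4 libraries and 93.1 and 118 in the Sox2 libraries (log2 difference 0.94, SE 0.16). TXNRD2, the mitochondrial reductase, was higher in Sox2 (log2 difference -0.68, SE 0.11).

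NRF2 is the transcription factor that switches on many of these genes under oxidative stress. Of 33 of its regulators and targets 6 were higher in Oct4 and 11 in Sox2 (median -0.03), the latter 7 without Oct4 replicate 2. ABCC3, an efflux pump for conjugates, read 1899 and 1579 in the Oct4 libraries and 173 and 237 in the Sox2 libraries (log2 difference 3.09, SE 0.21). HMOX1, haem oxygenase, read 56.9 and 63 in the Oct4 libraries and 14.6 and 8.56 in the Sox2 libraries (log2 difference 2.32, SE 0.28). SLC7A11, which imports the cystine needed for glutathione, ran the other way (23.2 and 27.5 in the Oct4 libraries and 205 and 206 in the Sox2 libraries, log2 difference -2.97, SE 0.24), as did ME1, an NADPH-producing enzyme (176 and 126 in the Oct4 libraries and 924 and 901 in the Sox2 libraries, log2 difference -2.61, SE 0.16). The gene of NRF2 itself, NFE2L2, did not pass the test (2357 and 2129 in the Oct4 libraries and 2094 and 2094 in the Sox2 libraries, adjusted p = 0.366).

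**Figure D4:**
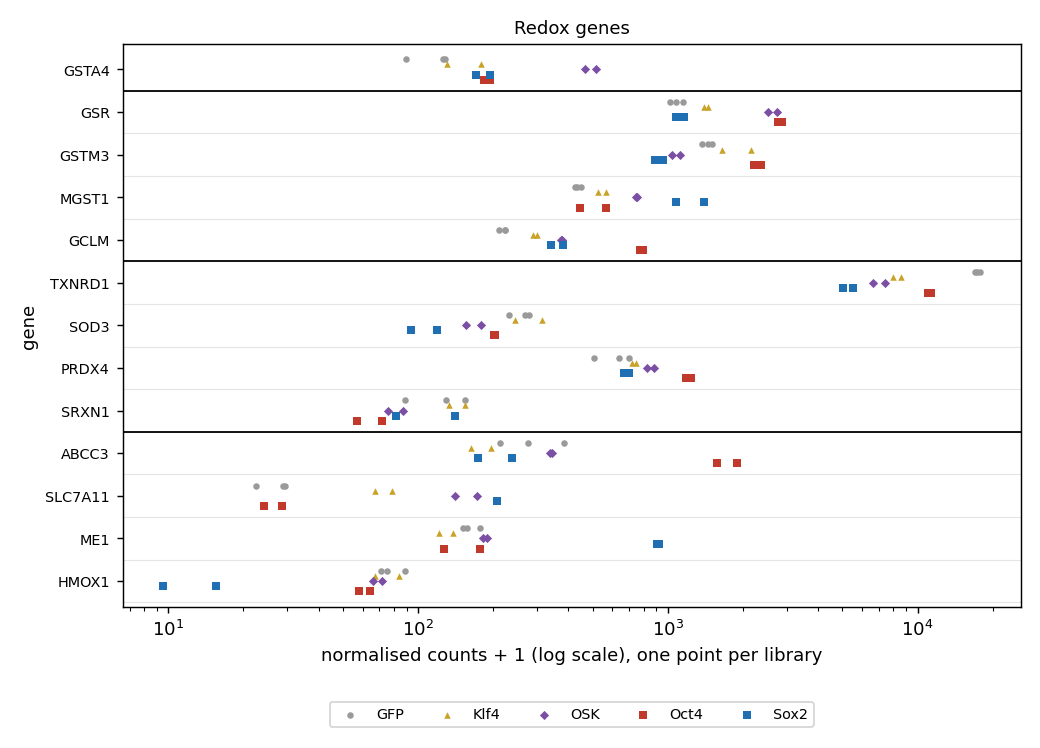
Normalised count plus 1 on a log axis, 1 point per library, for GSTA4 (top), glutathione genes, peroxide and thioredoxin enzymes, and NRF2 regulators and targets. The Oct4 and Sox2 squares overlap for GSTA4 and lie apart for the 12 other genes, with Sox2 to the right for MGST1, SRXN1, SLC7A11 and ME1.

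Aldehyde dehydrogenases clear reactive aldehydes and make retinoic acid. Of 17 tested, 7 were higher in Oct4 and 3 in Sox2 (median 0.09). ALDH1A3, which makes retinoic acid in the eye, read 9453 and 9983 in the Oct4 libraries and 4319.6 and 4998 in the Sox2 libraries (log2 difference 1.06, SE 0.09). ALDH4A1, of proline breakdown, was higher in Sox2 (log2 difference -0.98, SE 0.13), as was ALDH5A1, of GABA breakdown (log2 difference -1.18, SE 0.18).

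Energy and biosynthesis genes gave several patterns. Of 32 hypoxia and glycolysis genes 15 were higher in Oct4 and 2 in Sox2 (median 0.32). PFKFB3, which makes the activator of glycolysis fructose 2,6-bisphosphate, read 2609 and 2583 in the Oct4 libraries and 742 and 889.6 in the Sox2 libraries (log2 difference 1.68, SE 0.13), and LDHA, lactate dehydrogenase, read 6035 and 8681 in the Oct4 libraries and 2849.8 and 3871 in the Sox2 libraries (log2 difference 1.12, SE 0.14). Of 40 genes of oxidative phosphorylation 8 were higher in Oct4 and 5 in Sox2 (median -0.03), counts of 4 to 5 and 1 to 3 when any of the 4 compared libraries was left out. With all libraries, the calls were 32.5% of this list, close to the 33.4% called over all genes tested. PPARGC1A, the coactivator of mitochondrial biogenesis, read 121 and 109.9 in the Oct4 libraries and 6.73 and 10.3 in the Sox2 libraries (log2 difference 3.64, SE 0.20). It had the largest difference of the list. SDHA and NDUFB5, also higher in Oct4, had log2 differences of 0.55 (SE 0.14) and 0.49 (SE 0.16).

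Of 27 ATF4 targets and serine synthesis genes 11 were higher in Oct4 and 7 in Sox2 (median 0.18). The first count was 7 with only the 4 libraries, 5 without Oct4 replicate 1 and 6 without Sox2 replicate 2, and the second was 4 without Sox2 replicate 2. PSAT1 and PHGDH, successive enzymes of serine synthesis, were higher in Sox2: PSAT1 read 232 and 206 in the Oct4 libraries and 1447 and 1211 in the Sox2 libraries (log2 difference -2.59, SE 0.14) and PHGDH read 195 and 275 in the Oct4 libraries and 591 and 574 in the Sox2 libraries (log2 difference -1.33, SE 0.14). SLC7A8, an amino acid exchanger, was higher in Oct4 (6024 and 7168 in the Oct4 libraries and 1216 and 1813 in the Sox2 libraries, log2 difference 2.15, SE 0.14).

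Of 26 cholesterol synthesis genes 9 were higher in Oct4 and 7 in Sox2 (median -0.03). SREBF2, the transcription factor that drives the pathway, read 18468 and 18047 in the Oct4 libraries and 7337 and 7293 in the Sox2 libraries (log2 difference 1.32, SE 0.08).

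Cytosolic ribosomal protein genes had small differences, all of the same sign. Of 49, 42 were higher in Oct4 and 0 in Sox2; all 49 differences were positive, from 0.09 to 0.68, with a median of 0.38. RPS12 read 7307 and 8562 in the Oct4 libraries and 4792 and 5069 in the Sox2 libraries (log2 difference 0.68, SE 0.09) and RPL4 read 22474 and 24665 in the Oct4 libraries and 14392 and 15668 in the Sox2 libraries (log2 difference 0.65, SE 0.10). None passed the test for a difference greater than 1. Ribosomal protein genes have many processed pseudogenes that may share their reads.

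Matrix and adhesion genes were called in both directions. Of 28 collagens 7 were higher in Oct4 and 9 in Sox2 (median 0.04), the first count being 4 without Oct4 replicate 1. COL1A1, the main fibrillar collagen chain and also a fibroblast marker, read 3643 and 2521 in the Oct4 libraries and 8369 and 7029 in the Sox2 libraries (log2 difference -1.34, SE 0.23). COL4A3, a basement membrane chain, read 3513 and 3719 in the Oct4 libraries and 1422 and 1229.6 in the Sox2 libraries (log2 difference 1.45, SE 0.08), with COL4A4 alongside it (1.26), while COL4A1 (-0.98) and COL4A2 (-0.77) were higher in Sox2. The summed fibroblast markers given above overlapped between the lines, and their part in the collagen values was not tested.

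Of 39 matrix and remodelling genes 8 were higher in Oct4 and 13 in Sox2 (median 0.02). SERPINE2, a protease inhibitor, read 182 and 109 in the Oct4 libraries and 837 and 891 in the Sox2 libraries (log2 difference -2.61, SE 0.21), and MMP16, a membrane metalloproteinase, had a log2 difference of -2.29 (SE 0.15). ADAMTS5, an aggrecanase, read 2762 and 3292 in the Oct4 libraries and 578 and 665 in the Sox2 libraries (log2 difference 2.28, SE 0.12). Of 27 integrin and laminin genes 7 were higher in Oct4 and 11 in Sox2 (median -0.31). LAMA3, a chain of epithelial laminin, read 5052 and 6273 in the Oct4 libraries and 816 and 984 in the Sox2 libraries (log2 difference 2.65, SE 0.12). ITGB8, the integrin subunit that activates latent TGF-beta, read 1118 and 1187 in the Oct4 libraries and 5025 and 4689 in the Sox2 libraries (log2 difference -2.07, SE 0.09), and ITGA4 and ITGA1 were also higher in Sox2 (log2 differences -1.91, SE 0.21 and -1.58, SE 0.09).

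Epithelial and contractile genes were called in both directions. Of 33 epithelial junction genes 9 were higher in Oct4 and 4 in Sox2 (median 0.37). CDH11, a cadherin of mesenchymal cells, read 8626 and 7088 in the Oct4 libraries and 1718 and 1896 in the Sox2 libraries (log2 difference 2.11, SE 0.10), and CLDN1, a tight junction claudin, was higher in Sox2 (337 and 243 in the Oct4 libraries and 1052 and 926 in the Sox2 libraries, log2 difference -1.78, SE 0.16). CLDN11, another claudin, and PARD6B were higher in Oct4 (log2 differences 2.55, SE 0.39 and 1.27, SE 0.12). Of 19 keratins 5 were higher in Oct4 and 3 in Sox2 (median 0.56), the first count being 3 without Sox2 replicate 2 and 8 without GFP replicate 1. KRT38, a hair keratin, read 73.2 and 144 in the Oct4 libraries and 12.3 and 14.6 in the Sox2 libraries (log2 difference 2.85, SE 0.28), whereas the simple epithelial keratins KRT8 and KRT18 were higher in Sox2 (log2 differences -0.41, SE 0.07 and -0.60, SE 0.08). Keratin genes are close copies of one another and may share reads.

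Of 27 regulators of the epithelial to mesenchymal transition and contractile genes 9 were higher in Oct4 and 6 in Sox2 (median 0.29). MYL9, a myosin light chain, read 44063 and 43759 in the Oct4 libraries and 11648 and 11807 in the Sox2 libraries (log2 difference 1.90, SE 0.13). MYLK, its kinase, read 36052 and 37549 in the Oct4 libraries and 10408 and 10690.2 in the Sox2 libraries (log2 difference 1.80, SE 0.09). ACTC1, cardiac actin, read 425 and 385 in the Oct4 libraries and 58.3 and 41.1 in the Sox2 libraries (log2 difference 3.02, SE 0.30). TWIST1, a transcription factor of mesenchyme, was higher in Sox2 (273 and 206 in the Oct4 libraries and 668 and 612 in the Sox2 libraries, log2 difference -1.43, SE 0.12).

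Secreted signals and their regulators were called in both directions. Of 36 genes of TGF-beta and BMP signalling 13 were higher in Oct4 and 8 in Sox2 (median 0.17). INHBA, the subunit of activin A, read 209 and 264 in the Oct4 libraries and 1565 and 1777 in the Sox2 libraries (log2 difference -2.82, SE 0.34). LTBP1, which holds latent TGF-beta in the matrix, read 761 and 691 in the Oct4 libraries and 3021 and 2905 in the Sox2 libraries (log2 difference -2.03, SE 0.10), and the ligand TGFB1 had a log2 difference of -1.44 (SE 0.16). The antagonists NOG and FST were higher in Sox2 too (log2 differences -1.86, SE 0.26 and -1.85, SE 0.30). ID1, a target of BMP signals, was higher in Oct4 (552 and 537 in the Oct4 libraries and 197 and 241 in the Sox2 libraries, log2 difference 1.31, SE 0.10).

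Of 46 receptor tyrosine kinase and growth factor genes 11 were higher in Oct4 and 11 in Sox2 (median 0.19). NTRK2, the receptor for brain-derived neurotrophic factor, read 131 and 141 in the Oct4 libraries and 12.3 and 1.71 in the Sox2 libraries, a log2 difference of 4.51 (SE 0.52) that ranged from 3.36 without Sox2 replicate 2 to 5.66 without Sox2 replicate 1. MET, the receptor for hepatocyte growth factor, read 10015 and 9937 in the Oct4 libraries and 2729.7 and 2542 in the Sox2 libraries (log2 difference 1.92, SE 0.07). IGFBP3 and IGFBP5, which bind insulin-like growth factors, were higher in Sox2: IGFBP3 read 2651 and 2414 in the Oct4 libraries and 13022 and 13009.8 in the Sox2 libraries (log2 difference -2.36, SE 0.20) and IGFBP5 had a log2 difference of -2.98 (SE 0.37). Of 35 immediate early and MAPK feedback genes 8 were higher in Oct4 and 12 in Sox2 (median -0.18). EGR2, an early growth response factor, read 24.4 and 16 in the Oct4 libraries and 287 and 241 in the Sox2 libraries (log2 difference -3.67, SE 0.44), and PHLDA1 was higher in Oct4 (2152 and 1883 in the Oct4 libraries and 415 and 342 in the Sox2 libraries, log2 difference 2.41, SE 0.16).

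**Figure D5:**
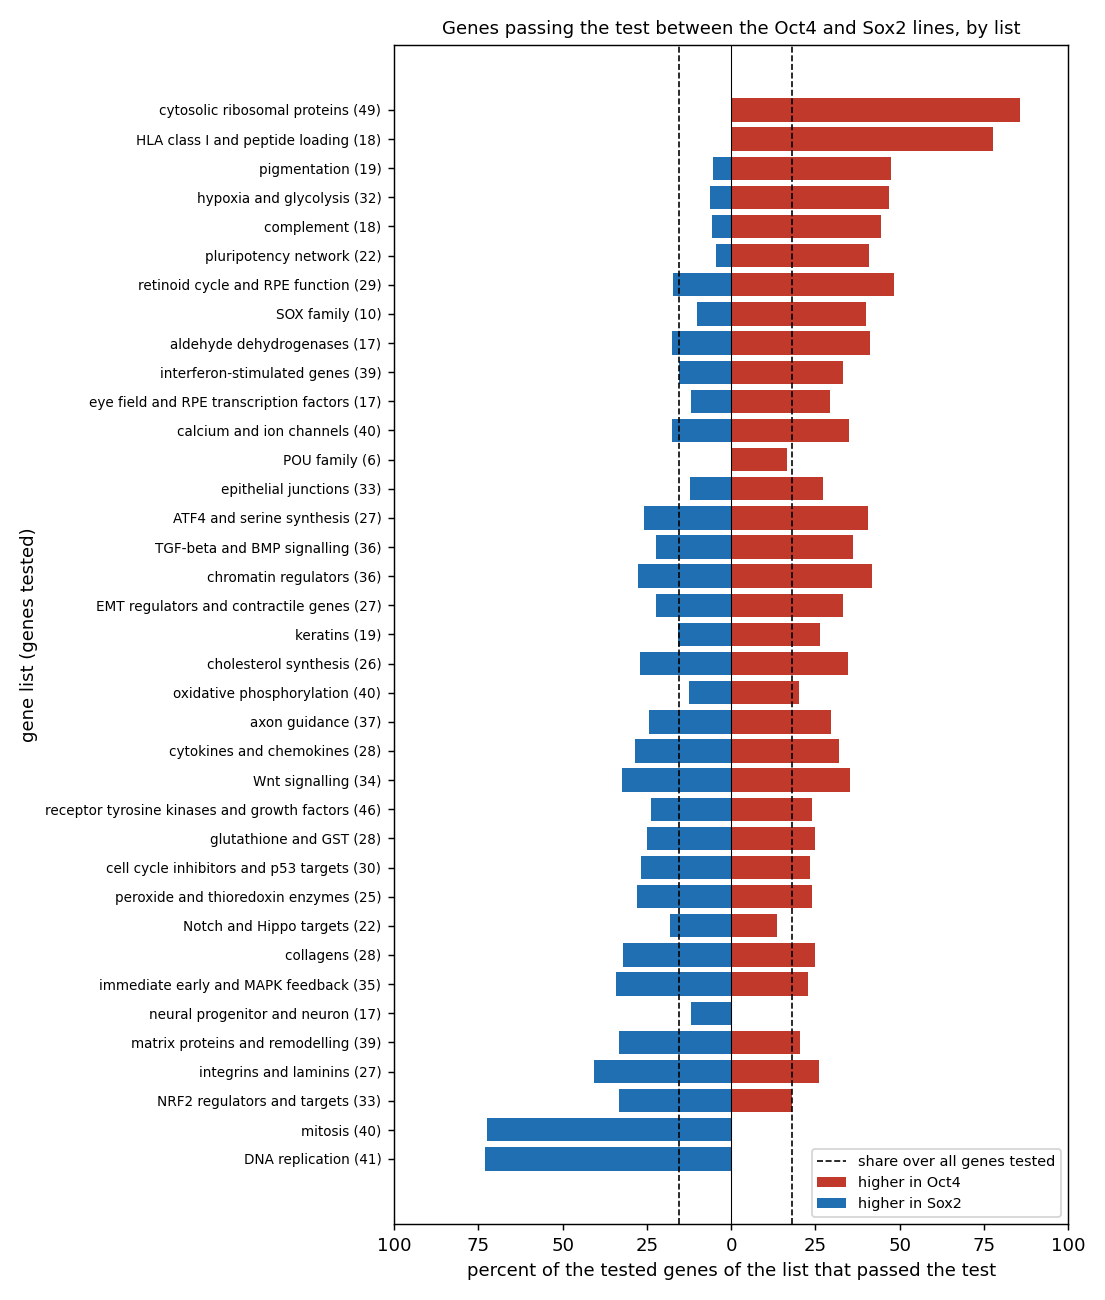
For each gene list, the percent of its tested genes (number in brackets) that passed the test and were higher in Oct4 (bars to the right) or higher in Sox2 (bars to the left). Dashed lines mark the shares over all genes tested, 18.0% and 15.4%, which include noncoding and low genes. Ribosomal proteins and class I genes reach furthest to the right, mitosis and DNA replication furthest to the left.

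By class of transcript, calls were counted in each direction. Of 13933 protein-coding genes 2815 were higher in Oct4 and 2674 in Sox2. Of 1174 long noncoding RNAs 171 were higher in Oct4 and 73 in Sox2, and of 1114 pseudogenes 141 and 43. Of 571 genes with an antisense symbol 78 were higher in Oct4 and 28 in Sox2. Whether the authors counted reads by strand is not given in the sources used here, so antisense genes and pseudogenes may hold reads of their partners.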

How the data were processed

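Polyadenylated RNA from 11 ARPE-19 libraries was extracted with TRIzol, enriched on oligo(dT) beads and prepared with the NEBNext Ultra II kit, according to protocols given per the labels. The submitters' processing notes name STAR 2.7.1a and featureCounts 1.6.2 with the builds GRCh38, hg38, GRCm38 and mm10; the annotation and the use of strand are not given in the sources used here. The deposited numbers are a signal, normalised counts; their steps show that the authors divided gene counts by a library factor. Dividing by the step gave whole reads for 100% of values up to 200 and at least 99.97% of all values, within a tolerance of 0.0061.

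Groups came from the sample titles. Because the values are not raw counts, limma 3.58.1 (R 4.3.3; lmFit, eBayes with trend) was run on log2(value + 1), a scale on which low genes appear to change less. All 11 libraries entered with a mean per group (6 residual and 9.21 prior degrees of freedom), with Benjamini-Hochberg adjustment over 18828 genes and a threshold of 0.05. edgeR 4.0.16 (TMM, quasi-likelihood) on the recovered reads called 6101 genes, and DESeq2 1.42.0 called 5327. The procedure was also run on simulated counts, with the Sox2 means in every group, the same fixed spread for all genes and no outlying library. That setting is simpler than these data, so the run does not give the error rate here. A fold against a group without reads was computed at 3 reads over the group.

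The genes compared and the 38 gene lists and 6 marker lists were chosen with earlier results of these data known. Named genes are the delivered factors, GSTA4, the 12 largest differences each way (adjusted p under 0.05, a symbol, libraries not overlapping, mean of at least 100 in the higher group) and up to 4 per list by size (adjusted p under 0.05, mean of at least 50). Other list members were named after their values were seen, and a few genes that met the rule are not reported here. Gene positions and promoters are from RefSeq (GRCh38.p14).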

Additional observations from a re-analysis of the deposited data

How the results depend on the processing

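Of 19 alternatives, 18 gave between 4556 and 7168 calls (6283 in the comparison as reported), and every gene called both there and as reported had the same direction. Testing for a log2 difference greater than 1 gave 743 calls, 536 higher in Oct4 and 207 higher in Sox2; that threshold is stricter by construction. The lists' counts under it shrank accordingly, to 0 for the ribosomal genes. Leaving out 1 library, done for each of the 4 compared libraries, GFP replicate 1 and OSK replicate 1, gave 4556 to 7168 calls, of which 2507 to 3812 were higher in Oct4 and 1989 to 3356 higher in Sox2; leaving out 1 of the 4 compared libraries gave at most 5008. Leaving out GFP replicate 1 and OSK replicate 1 together, an alternative chosen after seeing the data, gave 6899. Only the 4 libraries gave 5751, and no filter gave 5160 of 48093 genes.

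Replicate numbers are shared between the groups, but the deviations of same-numbered Oct4 and Sox2 libraries correlated at only 0.04, so the numbers were not taken to pair the samples. With the replicate block 5942 genes were called, 3227 higher in Oct4 and 2715 in Sox2. The GSTA4 difference was -0.0428 (limma adjusted p = 0.935) without Sox2 replicate 1 and up to 0.15 without Sox2 replicate 2, never past the threshold. Of 166 named genes 14 lost their call under at least 1 alternative other than the stricter threshold. With 2 libraries a group, genes with few reads are the least precise.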

Other observations

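Wnt signalling, which patterns the retina and RPE, had calls on both sides. Of 34 tested genes 12 were higher in Oct4 and 11 in Sox2 (median 0.18). SFRP4, a secreted Wnt inhibitor, read 4109 and 3256 in the Oct4 libraries and 407 and 271 in the Sox2 libraries (log2 difference 3.46, SE 0.26), and DKK1, another inhibitor, read 1728 and 1923 in the Oct4 libraries and 318 and 354 in the Sox2 libraries (log2 difference 2.44, SE 0.10). ZNRF3, a feedback ligase that removes Wnt receptors, and AXIN2, a target used as a readout of the pathway, were higher in Sox2 (log2 differences -1.67, SE 0.12 and -1.41, SE 0.23). AXIN2 read 140.5 and 172 in the Oct4 libraries and 344 and 496 in the Sox2 libraries. Of 22 Notch and Hippo targets 3 were higher in Oct4 and 4 in Sox2, the first count being 0 or 1 when any of the 4 compared libraries was left out. JAG1, a Notch ligand, read 869 and 990.0 in the Oct4 libraries and 4057 and 4351 in the Sox2 libraries (log2 difference -2.18, SE 0.09), and HES4, a Notch target, had a log2 difference of -1.66 (SE 0.23).

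Of 37 axon guidance genes 11 were higher in Oct4 and 9 in Sox2 (median 0.08). NRP1, a receptor for semaphorins and VEGF, read 3565 and 3280.2 in the Oct4 libraries and 123 and 106 in the Sox2 libraries (log2 difference 4.89, SE 0.13) and 2229 to 2323 with OSK. EPHB3, an ephrin receptor, read 179 and 196 in the Oct4 libraries and 5.61 and 15.4 in the Sox2 libraries, a log2 difference of 4.17 (SE 0.62) that ranged from 3.52 without Sox2 replicate 1 to 4.83 without Sox2 replicate 2. EPHA5 was higher in Sox2 (102 and 102 in the Oct4 libraries and 552 and 532 in the Sox2 libraries, log2 difference -2.40, SE 0.20). Of 40 calcium and ion channel genes 14 were higher in Oct4 and 7 in Sox2 (median 0.51), the first count being 9 without Oct4 replicate 1. KCNK1, a potassium leak channel, read 188 and 271 in the Oct4 libraries and 2609.7 and 2787 in the Sox2 libraries (log2 difference -3.57, SE 0.15). SCNN1A, a subunit of the epithelial sodium channel, read 132 and 124 in the Oct4 libraries and 25.8 and 7.71 in the Sox2 libraries, a log2 difference of 3.08 (SE 0.41) that ranged from 2.27 without Sox2 replicate 2 to 3.89 without Sox2 replicate 1. Of 36 chromatin regulators 15 were higher in Oct4 and 10 in Sox2 (median 0.19). TET1, which oxidises methylated cytosine, read 107 and 120.2 in the Oct4 libraries and 26.9 and 42 in the Sox2 libraries (log2 difference 1.72, SE 0.26), CHD7 had a log2 difference of 1.30 (SE 0.12), and PHF19, a Polycomb partner, was higher in Sox2 (156 and 149.9 in the Oct4 libraries and 379 and 366 in the Sox2 libraries, log2 difference -1.28, SE 0.14).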
